A study of Monodelphis domestica with 2 samples.

Results

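Genes of the synaptic adhesion families were examined in nuclei of the primary visual cortex (V1) of Monodelphis domestica, an opossum kept as a laboratory marsupial. They were chosen by their symbols in the deposited gene list, from neurexins and neuroligins through contactins, teneurins and latrophilins to the IgLON proteins. The search returned 68 of the 11590 genes that carried a symbol, among 30800 genes in all. Of the 68, 62 belong to 19 synaptic adhesion families, and 6 (LRRC40, LRRC41, LRRC45, LRRC46, LRRC47 and LRRC49) share only the first letters of the netrin-G ligand gene LRRC4 and are given apart. A RefSeq gene table of another assembly held 83 symbols that fit the search, and 16 of these, among them NRXN2, CNTNAP2, NLGN2, CBLN2 and NXPH1, were not analysed here.

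Nuclei came from 2 adult male opossums of 1 group, animal 1 at 1.5 years of age and animal 2 at 2 years. Neither carried an allele or received a treatment that the labels name. Each animal gave 2 single-nucleus libraries. Nuclei were assigned by the deposited labels to 18 subclasses: 8 glutamatergic, 5 GABAergic and 5 non-neuronal. The glutamatergic subclasses were 4 of intratelencephalic neurons, which project within the cortex (IT_A to IT_D), and L5PT, L5NP, L6CT and L6b of the deep layers. The GABAergic subclasses were Pvalb, Sst, Vip, Lamp5 and Frem1, and the non-neuronal ones were astrocytes (Astro), oligodendrocyte precursors (OPC), oligodendrocytes (OD), microglia (Micro) and endothelial cells (Endo).

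Synaptic adhesion molecules hold the membranes of a synapse together and help to set which cells connect and what kind of synapse forms. Presynaptic hubs such as the neurexins bind many postsynaptic and secreted partners, while contactins, teneurins and IgLON proteins sit on axons and dendrites and also on glia. Glial cells use several of the same families at the node of Ranvier and along myelin.

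UMIs, each standing for 1 captured RNA molecule, were summed over the nuclei of an animal and subclass and scaled to the total of that sum as CPM (counts per 1000000 UMIs). Because intronic reads were counted and long genes then give more UMIs, levels are compared between subclasses for a gene, and not between genes. The 4 libraries held 55625042 to 69706055 UMIs, and the labelled nuclei numbered 32764. The sums ranged from 48514 UMIs over 29 endothelial nuclei to 53793396 UMIs over 5563 IT_A nuclei, so an endothelial value rests on few UMIs. Between 16 and 30 barcodes were shared by any pair of libraries. Of 51 marker genes, 46 had a symbol and 35 were highest in both animals within the class or subclass they mark, including all 17 listed for oligodendrocytes, OPC, astrocytes, microglia and endothelial cells with a symbol. In L5NP, L6b, Frem1 and Pvalb none of the listed markers with a symbol was highest there, and these subclasses keep the deposited names.

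Free neuronal RNA can enter the droplets of other nuclei. The 6 neuronal transcripts checked for it stood in oligodendrocytes at a median of 7.03% of the neuronal mean (range 2.79% to 16.2%), in astrocytes at 5.96% (2.19% to 21.0%), in microglia at 10.2% (2.87% to 21.3%), in endothelial nuclei at 7.97% (0 to 24.0%) and in OPC at 11.2% (2.80% to 42.7%). Among the 54 genes with at least 20 CPM in some subclass of both animals, 28 lay above the highest of these shares in astrocytes, 37 in OPC, 28 in oligodendrocytes, 9 in microglia and 8 in endothelial nuclei. A glial level under that share is not told apart from background here, and whether the glia make these 6 transcripts themselves was not tested.

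Together the 68 genes took 3.65% ± 0.083 of all UMIs of the glutamatergic class (SD, n = 2 animals). The share was 3.45% ± 0.20 for the GABAergic class and 1.63% ± 0.011 for the non-neuronal one. Sst stood highest at 4.34% ± 0.43, followed by L5PT at 3.88% ± 0.20 and IT_A at 3.84% ± 0.047. L5PT (4.02% and 3.74%) and IT_A (3.87% and 3.80%) overlapped between animals. Lamp5 stood lowest among neurons at 1.86% and 1.83%, below every other neuronal subclass in both animals. Among glia, OPC reached 2.86% and 2.80% and astrocytes 2.41% and 2.31%, against 0.67% and 0.83% in oligodendrocytes and 0.65% and 0.76% in microglia. The 10 genes with the most UMIs held 81.9% of these UMIs, a share into which gene length also enters.

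Of the 68 genes, 66 reached a mean of 1 CPM in some subclass and 54 reached 20 CPM there in both animals. Of the 54, 18 stayed at or above 20 CPM in every one of the 18 subclasses and both animals, and 30 did so in every neuronal subclass. The highest subclass was the same in both animals for 36 of the 54. By mean level, 8 genes were highest in IT_D and 5 each in Sst, astrocytes and oligodendrocytes, and in each of these 4 subclasses 4 genes were highest in both animals. No gene was highest in L6CT. Unevenness across the 13 neuronal subclasses, as the index tau that runs from 0 (equal levels) to 1 (a single subclass), had a median of 0.558 over the 52 genes with 20 CPM in neurons, beside 0.358 over all 7936 genes at that level.

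**Figure D1:**
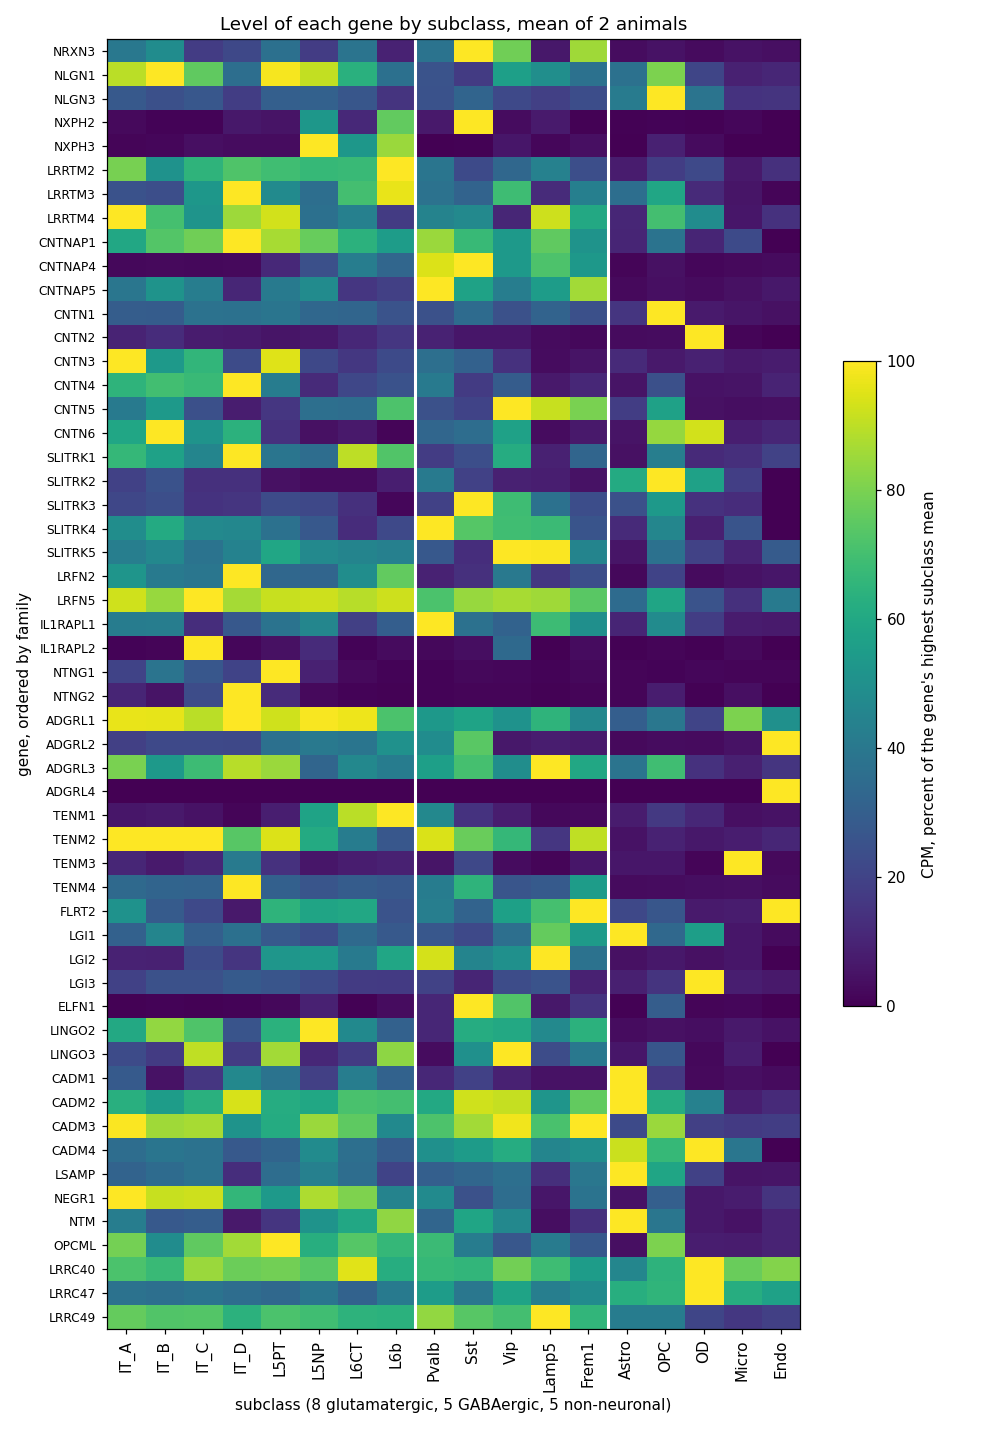
Levels of the 54 genes with at least 20 CPM in some subclass of both animals (rows, ordered by family) in the 18 subclasses (columns), as the mean CPM of 2 animals in percent of the gene's highest subclass. White lines part glutamatergic, GABAergic and non-neuronal subclasses. LRFN5 is even over neurons, while ADGRL4, CNTN2, IL1RAPL2 and NTNG2 have a single bright cell.

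In 10 of the 54 genes 1 subclass exceeded every other by at least 2 times, with no overlap between the animals, a share of 18.5% beside 23.4% of all 10179 genes at that level. These were chosen by their values and carry no test. ADGRL4, a latrophilin-related receptor known from blood vessels, stood at 660 and 968 CPM in the endothelial nuclei of animals 1 and 2 and at 0.79 CPM or less in every other subclass, from 4, 28, 16 and 40 UMIs in the 4 libraries. In microglia, TENM3, a teneurin that binds latrophilins across the synaptic cleft, was at 2320 and 2486 CPM. Its next subclass was IT_D at 1102 and 878 CPM. All 4 libraries gave TENM3 between 2248 and 2502 CPM in microglia, on 598 to 812 UMIs each, which is 827% and 970% of the neuronal mean.

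Oligodendrocytes held 2 of the 10. CNTN2, the contactin of the juxtaparanode beside the node of Ranvier, stood there at 252 and 242 CPM, and L6b came next at 38.1 and 39.7 CPM. LGI3, a secreted ligand of ADAM22 and ADAM23, was at 163 and 141 CPM, and its next subclass, IT_D, at 51.0 and 35.3 CPM. OPC held CNTN1, a contactin of axons and glia, at 1341 and 1616 CPM against 533 and 610 in L5PT. They also held NLGN3, a postsynaptic partner of neurexins that glial precursors are known to express, at 70.6 and 65.9 CPM, while astrocytes reached 27.7 and 29.1 CPM. Astrocytes held CADM1, a homophilic Ig adhesion molecule also called SynCAM1, at 2343 and 2024 CPM, and IT_D followed at 1094 and 940 CPM.

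Both netrin-G genes and 1 accessory receptor were the neuronal cases. NTNG1, which sits on axons and binds the ligand NGL1, was at 774 and 626 CPM in L5PT, above the 338 and 203 CPM of IT_B. NTNG2, its paralogue with the ligand NGL2, was at 739 and 639 CPM in IT_D and at 144 and 179 CPM in IT_C. IL1RAPL2, a postsynaptic protein related to the interleukin receptors, was at 28.4 and 34.4 CPM in IT_C, 9.48 and 11.9 CPM in Vip and under 5 CPM elsewhere.

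**Figure D2:**
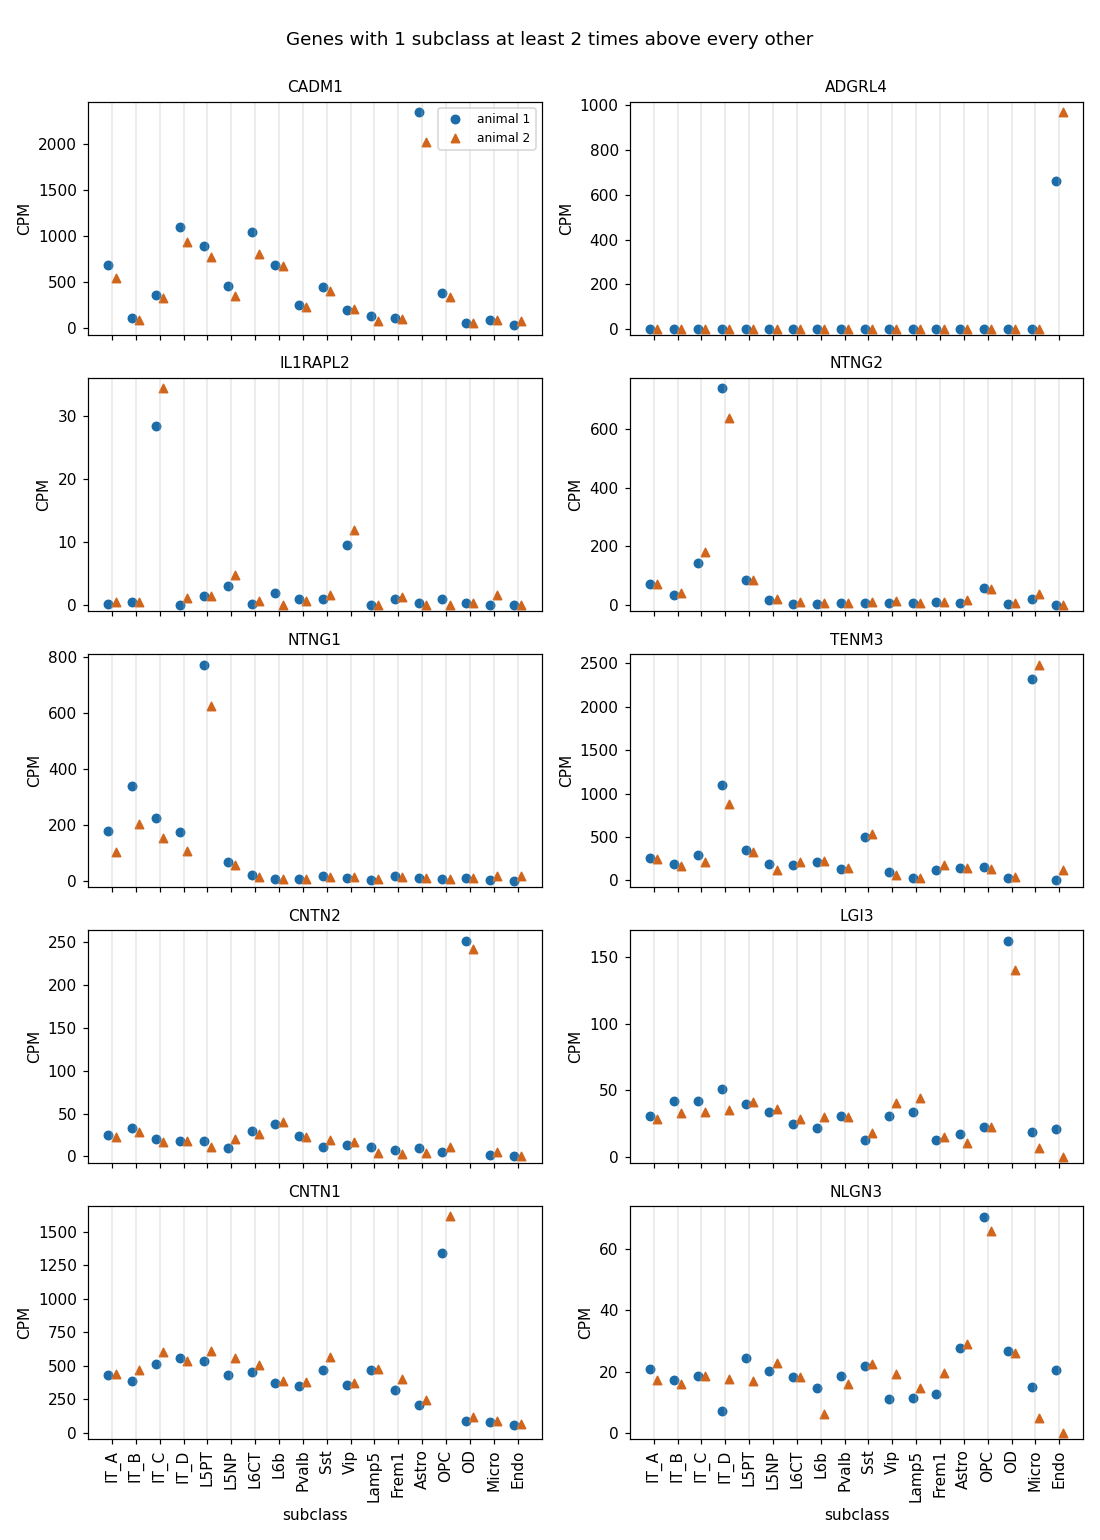
CPM of 10 genes in the 18 subclasses, each on its own linear axis, with circles for animal 1 and triangles for animal 2. Each gene has 1 subclass at least 2 times above the next, with IL1RAPL2 at 28.4 and 34.4 CPM in IT_C and TENM3 at 2320 and 2486 CPM in microglia.

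Among the neurexins and their secreted ligands, NRXN3 covered a wide range within interneurons. It stood at 19006 and 14540 CPM in Sst, 15033 and 13693 in Frem1, 13533 and 12782 in Vip, 6728 and 5996 in Pvalb and 1201 and 985 in Lamp5. The Sst and Frem1 values overlapped between animals, and Lamp5 lay below every other neuronal subclass. In glutamatergic neurons NRXN3 was highest in IT_B (8523 and 7820 CPM) and lowest in L6b (1465 and 1724 CPM). NXPH2, a neurexophilin that binds alpha-neurexins, was high in Sst (1332 and 1151 CPM), L6b (924 and 964) and L5NP (598 and 716), and at 162 CPM or less in each of the other subclasses. NXPH3, its paralogue, stood at 24.5 and 26.9 CPM in L5NP, 21.8 in L6b in both animals and 12.1 and 15.1 in L6CT. In each of the other subclasses it stood under 3 CPM. The cerebellins, which link neurexins to delta glutamate receptors, stayed under 20 CPM as a mean in every subclass. CBLN4 reached a mean of 14.1 CPM in Vip, CBLN1 5.73 in IT_C and CBLN3 0.20 in astrocytes.

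The postsynaptic partners of neurexins followed another order. NLGN1, the neuroligin of excitatory synapses, was at 4918 and 4363 CPM in IT_B and 4799 and 4348 in L5PT, values that overlapped, and at 841 and 776 in Sst. OPC held 3729 and 3723 CPM of NLGN1, a level within the range of the glutamatergic subclasses. LRRTM3, a leucine-rich repeat ligand of neurexins, was at 801 and 587 CPM in IT_D and 750 and 593 in L6b, against 171 and 164 in IT_B. LRRTM4 was highest in IT_A (173 and 194 CPM), IT_D (176 and 138), L5PT (174 and 168) and Lamp5 (194 and 145), 4 subclasses that did not separate, and at 15.8 and 23.0 in Vip. LRRTM2 lay between 31.3 and 78.1 CPM over the glutamatergic sums and between 12.2 and 30.2 CPM over the GABAergic sums. LRRTM1 stayed under 20 CPM as a mean in every subclass.

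Contactins, which are anchored to the membrane by a lipid, and their contactin-associated partners split the neurons in several ways. CNTN3 was at 882 and 994 CPM in IT_A, 873 and 909 in L5PT and 150 and 154 in L6CT. CNTN4 reached 1589 and 1542 CPM in IT_D and lay between 1005 and 1155 in the other IT subclasses, against 183 and 189 in L5NP. CNTN5 was at 520 and 776 CPM in Vip, 566 and 623 in Lamp5 and 498 and 537 in Frem1, and at 49.3 and 54.2 in IT_D. Vip overlapped with both others, and Lamp5 lay above Frem1. CNTN6 joined neurons and glia, with 519 and 501 CPM in IT_B, 414 and 537 in oligodendrocytes and 423 and 434 in OPC, but 7.26 and 7.93 in L6b. Among the partners, CNTNAP4, known from interneurons, was at 2195 and 2298 CPM in Sst and 2206 and 2053 in Pvalb. Its IT levels ran from 33.5 to 61.1 CPM, in the same range as glial levels, while L6CT reached 996 and 906. CNTNAP5 was highest in Pvalb (2005 and 1859 CPM), followed by Frem1 (1730 and 1596). CNTNAP1, the partner of CNTN1 at the paranode, lay between 27.6 and 73.9 CPM over all neuronal sums.

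SLITRK proteins sit on the postsynaptic side and bind LAR-type receptor phosphatases. SLITRK3, the member known from inhibitory synapses, was at 44.5 and 55.2 CPM in Sst and 29.2 and 39.4 in Vip, above the highest glutamatergic sum of 14.1. SLITRK5 was at 72.6 and 70.6 CPM in Vip and 70.3 and 72.1 in Lamp5, but 9.86 and 8.75 in Sst. SLITRK1 was at 104 and 70.5 CPM in IT_D and 81.2 and 75.9 in L6CT, which overlapped, and at 4.85 and 10.9 in Lamp5. SLITRK2 was a glial member, with 35.6 and 31.1 CPM in OPC, 20.5 and 20.2 in astrocytes and at most 14.5 in neurons. SLITRK4 reached 27.5 and 24.6 CPM in Pvalb, and SLITRK6 stayed under 20 CPM.

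ELFN1, which recruits metabotropic glutamate receptors to synapses onto some interneurons, stood at 50.2 and 60.9 CPM in Sst, 34.0 and 46.8 in Vip and 6.25 and 5.86 in Pvalb. OPC held 13.3 and 19.3 CPM, and the IT subclasses 1.02 CPM at most. Of the SALM proteins, LRFN5 was even, at 290 to 417 CPM over the 26 neuronal sums, while LRFN2 ran from 46.6 CPM in Pvalb to 612 in IT_D. IL1RAPL1, a postsynaptic ligand of the phosphatase PTPRD, was at 145 and 143 CPM in Pvalb and at 18.9 CPM in IT_C of both animals, so that it and IL1RAPL2 had opposite places for IT_C. Of the LINGO proteins, LINGO2 was at 47.7 and 36.2 CPM in Pvalb and above 100 CPM in every other neuronal subclass except IT_D of animal 2 (57.3). LRRC4, the NGL2 gene, had its highest level in OPC (21.3 and 19.9 CPM), while LRRC4C, the NGL1 gene, stayed under 20 CPM.

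Teneurins and latrophilins bind each other across the cleft, and FLRT proteins join them. TENM1 was high in 3 of the 4 glutamatergic subclasses outside IT. It stood at 808 and 853 CPM in L6b, 784 and 708 in L6CT and 510 and 451 in L5NP, but 70.9 and 67.2 in L5PT. The IT sums ran from 8.80 to 60.1 CPM. TENM2 was at 2713 to 3273 CPM in IT_A, IT_B and IT_C and at 451 and 490 in Lamp5. TENM4 reached 570 and 626 CPM in IT_D and 375 and 403 in Sst. ADGRL2, a latrophilin, was at 433 and 639 CPM in endothelial nuclei on few UMIs, 386 and 410 in Sst and 262 and 259 in Pvalb, but 26.8 to 42.8 over the sums of Vip, Lamp5 and Frem1. ADGRL3 was highest in Lamp5 (1902 and 1841 CPM), a subclass that stood low for NRXN3, TENM2, NTM and NEGR1. FLRT2 was at 59.7 and 57.6 CPM in Frem1 and at 1.76 and 6.44 in IT_D.

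LGI proteins are secreted. LGI1, a ligand of ADAM22 linked to epilepsy, was at 357 and 386 CPM in astrocytes and 288 and 281 in Lamp5. LGI2 was at 97.7 and 94.0 CPM in Pvalb and 95.3 and 109 in Lamp5, with no separation, and at 8.08 to 24.0 over the sums of IT_A to IT_D. The IgLON proteins LSAMP and NTM were highest in astrocytes, at 6947 and 6745 CPM and at 8352 and 7689 CPM. L6b was next for NTM with 7238 and 6148 CPM, and Lamp5 (317 and 289) and IT_D (394 and 685) were low. OPCML was at 11073 and 10622 CPM in L5PT and at 8820 and 8606 in OPC, against 387 and 531 in astrocytes. NEGR1, the fourth IgLON gene, was at 788 and 959 CPM in IT_A and 36.3 and 72.1 in Lamp5. CADM4, a SynCAM of myelinating glia, was at 53.0 and 51.0 CPM in oligodendrocytes and 47.9 and 47.8 in astrocytes.

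The first comparison set the mean of the 13 neuronal subclasses against that of the 5 non-neuronal ones. All tests on subclasses used edgeR's quasi-likelihood test on the summed counts with Benjamini-Hochberg adjustment over every gene tested, and fold changes are differences of mean log2 levels with each subclass weighted equally. Subclasses were clustered on the same nuclei, so a p is not an independent check of the labels. It rests on the spread of the sums of 2 animals about their subclass means. Of 66 genes tested, 50 passed, beside 44.7% of all genes tested. In neurons 48 were higher and 2 lower, beside 30.2% and 14.6% of all genes. The median log2 fold change was 1.84, against 0.44 over all genes. The zeros of the small endothelial sums enter these means, so the test was also run without endothelial nuclei, an alternative chosen after seeing the data. It called 50 of 65 genes, beside 59.5% of all genes, with 44 higher and 6 lower, beside 31.3% and 28.2%.

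Without endothelial nuclei, CNTNAP5 had a log2 fold change of 3.64 ± 0.097 (SE, as for all fold changes here), LINGO2 of 3.54 ± 0.15, TENM4 of 3.52 ± 0.11, TENM2 of 3.29 ± 0.080, NRXN3 of 3.11 ± 0.084 and CNTNAP4 of 3.03 ± 0.10. CNTNAP5 averaged 953 and 856 CPM over the neuronal subclasses and 56.0 and 101 over all 5 non-neuronal ones. TENM4 averaged 234 and 252 CPM against 14.8 and 25.6, with no overlap between any neuronal and any non-neuronal sum. Higher as a mean of the 4 remaining non-neuronal subclasses were SLITRK2 (log2 fold change -2.25 ± 0.18), CADM4 (-0.68 ± 0.085), NLGN3 (-0.56 ± 0.15) and CNTN6 (-0.36 ± 0.11) of the adhesion families. LRRC41 and LRRC47 of the others were too. Microglia did not share this for CNTN6 (35.8 and 49.4 CPM) and NLGN3 (15.1 and 4.78). Glutamatergic and GABAergic means were 192 and 139 CPM for CNTN6 and 17.1 and 16.7 for NLGN3. NXPH2 moved from 4.79 with endothelial nuclei, where both of its sums were 0, to 2.99 without them, CNTNAP1 from 3.88 to 2.07 and LGI2 from 4.44 to 2.84. TENM3 moved from 0.51 (adjusted p = 0.0028) to 0.036 (adjusted p = 0.80), with microglia included in both.

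Between glutamatergic and GABAergic neurons, 45 of 65 genes passed, beside 42.8% of all genes. In glutamatergic subclasses 31 were higher and 14 lower, beside 22.0% and 20.8%. The median absolute log2 fold change was 0.64 over the tested genes and 0.35 over all genes. ELFN1 and CNTNAP4 lay farthest to the GABAergic side. CNTNAP4 averaged 360 and 315 CPM over the glutamatergic subclasses and 1734 and 1632 over the GABAergic ones, and no sums overlapped (log2 fold change -3.17 ± 0.070, adjusted p = 6.1e-19). ELFN1 averaged 1.53 and 1.02 CPM against 20.7 and 24.9 (-3.91 ± 0.28, adjusted p = 1.2e-10), although L5NP overlapped with Pvalb and Lamp5, and L6b of animal 1 with Lamp5. SLITRK3 (-1.44 ± 0.17), LGI2 (-1.16 ± 0.10), CNTNAP5 (-1.06 ± 0.051), NRXN3 (-0.69 ± 0.047) and CNTN5 (-0.69 ± 0.10) were also higher in GABAergic neurons, with overlap between the sums of the classes for all 5. CNTN5 stood at -0.42 without animal 2.

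On the glutamatergic side, both netrin-G genes led. NTNG1 averaged 223 and 159 CPM over glutamatergic subclasses and 10.5 and 11.0 over GABAergic ones (3.30 ± 0.32, adjusted p = 2.2e-08). NTNG2 averaged 137 and 131 CPM against 6.67 and 7.77 (2.68 ± 0.34, adjusted p = 9.7e-07). L6b, with 7.26 and 5.95 CPM of NTNG1 and 3.63 and 3.97 of NTNG2, and L6CT, with 22.0 and 12.8 of NTNG1 and 3.55 and 9.15 of NTNG2, overlapped with GABAergic sums for both genes. CNTN3 (1.79 ± 0.089), NEGR1 (1.66 ± 0.12), CADM1 (1.55 ± 0.072), LRFN2 (1.52 ± 0.054), SLITRK1 (1.40 ± 0.091), CNTN4 (1.33 ± 0.067) and TENM3 (1.22 ± 0.087) followed. The postsynaptic neurexin partners LRRTM2 (1.25 ± 0.087) and NLGN1 (1.11 ± 0.043) were higher too, and every glutamatergic sum of LRRTM2 exceeded every GABAergic one, while the sums of NLGN1 and of the 7 genes before it overlapped.

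**Figure D3:**
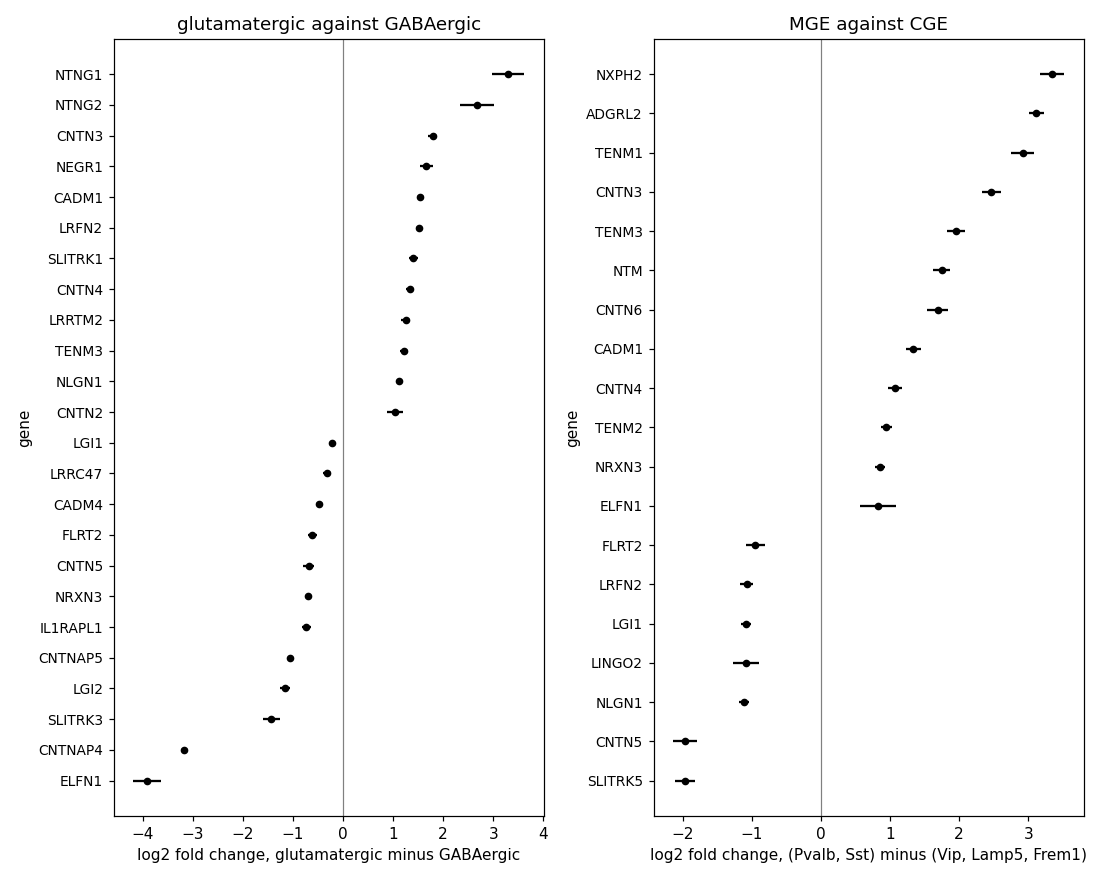
Log2 fold changes (points) with standard errors (bars) for the named genes, in glutamatergic minus GABAergic neurons (left) and in Pvalb and Sst minus Vip, Lamp5 and Frem1 (right), from edgeR over 26 sums. On the left CNTNAP4 stands at -3.17 and NTNG1 at 3.30, and on the right ADGRL2 stands at 3.12 and SLITRK5 at -1.97.

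Within glutamatergic neurons, IT_A to IT_D were set against L5PT, L5NP, L6CT and L6b. Of 65 genes, 37 passed, beside 26.8% of all genes, with 26 higher in IT and 11 lower, beside 14.7% and 12.1%. CNTN6 averaged 371 and 329 CPM in IT and 35.3 and 34.3 in the other subclasses, with no overlap (3.82 ± 0.13, adjusted p = 6.7e-15). CNTN4 averaged 1165 and 1203 CPM against 398 and 387, again with no overlap (1.81 ± 0.079). NTNG2 (3.36 ± 0.17), NTNG1 (1.98 ± 0.18), LRRTM4 (0.98 ± 0.088), CNTN3 (0.97 ± 0.094), TENM2 (0.97 ± 0.066), TENM4 (0.71 ± 0.083) and ADGRL3 (0.67 ± 0.056) were higher in IT as well. For each of these 7 genes L5PT lay within or above the IT range. NTNG1 had like means over the CPM values of both sides, since L5PT held the highest level and L5NP, L6CT and L6b the lowest.

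On the side of L5PT, L5NP, L6CT and L6b stood NXPH2, TENM1 and CNTNAP4. TENM1 averaged 34.8 and 42.9 CPM in IT and 543 and 520 in the other subclasses, with no overlap (-3.38 ± 0.12, adjusted p = 1.1e-14). CNTNAP4 averaged 55.7 and 45.5 CPM against 665 and 585, with no overlap (-3.38 ± 0.096). NXPH2 averaged 40.2 and 27.2 CPM against 439 and 466 (-3.43 ± 0.12), and IT_D and L5PT overlapped. The secreted LGI2 (-1.95 ± 0.13) and the receptor ADGRL2 (-0.88 ± 0.077) also did not overlap between the sides, and NTM (-0.89 ± 0.094) and CADM1 (-0.71 ± 0.080) were lower in IT. The sums of the last 2 overlapped, with CADM1 at 1094 and 940 CPM in IT_D and NTM in L5PT (1195 and 1251) below IT_A, IT_B and IT_C.

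IT_A and IT_C are a pair of IT subclasses that the study set against each other. Of 64 genes, 14 passed, beside 10.8% of all genes, with 8 higher in IT_A and 6 lower, beside 5.87% and 4.98%. With the animal as a block, which the design allows because each animal gave both sums, 33 of the 64 were called, beside 28.9% of all genes. IL1RAPL2 stood at 0.17 and 0.46 CPM in IT_A and 28.4 and 34.4 in IT_C (-6.48 ± 0.41, adjusted p = 3.7e-05). Its relative IL1RAPL1 went the other way, with 65.3 and 55.7 CPM in IT_A and 18.9 in both animals in IT_C (1.70 ± 0.18, adjusted p = 0.00037). LRRTM3 and LRRTM4 formed another opposed pair: LRRTM3 was at 173 and 174 CPM in IT_A and 354 and 378 in IT_C (-1.05 ± 0.14), and LRRTM4 at 173 and 194 against 91.4 and 99.0 (0.98 ± 0.14).

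NRXN3 was higher in IT_A, at 6951 and 6473 CPM against 3138 and 2777 in IT_C (1.21 ± 0.11, adjusted p = 0.0002). NXPH2 (1.48 ± 0.28), FLRT2 (1.25 ± 0.23), CADM1 (0.86 ± 0.13), CNTN3 (0.63 ± 0.16) and SLITRK1 (0.57 ± 0.15) were higher in IT_A, and NTNG2 (-1.17 ± 0.17) and LGI2 (-1.24 ± 0.24) in IT_C. Within IT_A, NXPH2 was at 97.7 and 58.1 CPM in the type IT_A_4 and at 13.2 to 27.1 in the other 4 types, against 9.15 and 13.4 in IT_C as a whole. Its log2 fold change stood at 0.93 without animal 1, and with equal nuclei the calls for NXPH2 and SLITRK1 were lost. The sums of the 2 subclasses did not overlap for any of the 14 genes called. The calls were made on the same sums, so this is a description and adds no support. In simulated counts the spread was set alike for all genes and was not taken from these data. There the test found 27 of 109 genes changed 2-fold and 91 of 91 changed 4-fold. How many real changes it finds was not measured, so smaller differences could be missed.

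Interneurons of the medial ganglionic eminence (Pvalb and Sst) were compared with those of the caudal eminence (Vip, Lamp5 and Frem1). Of 65 genes, 33 passed, beside 24.4% of all genes, with 23 higher in Pvalb and Sst and 10 lower, beside 14.4% and 9.98%. ADGRL2 averaged 324 and 335 CPM in Pvalb and Sst and 36.3 and 40.2 in the other 3 subclasses, with no overlap (3.12 ± 0.11, adjusted p = 1.1e-14). The teneurins, which bind latrophilins, were higher too: TENM1 averaged 242 and 264 CPM against 41.9 and 27.2 (2.92 ± 0.17), TENM3 317 and 339 against 81.8 and 91.6 (1.95 ± 0.14) and TENM2 2677 and 2458 against 1609 and 1845 (0.95 ± 0.083). TENM4 passed in the same direction (0.64 ± 0.11). Only the sums of TENM1 did not overlap: Frem1 reached into the range of Pvalb and Sst for TENM2 (2476 and 2946 CPM, with Lamp5 at 451 and 490), TENM3 (117 and 179) and TENM4 (340 and 323).

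CNTN3 (2.47 ± 0.14), NTM (1.75 ± 0.12), CNTN6 (1.69 ± 0.16), CADM1 (1.33 ± 0.11) and CNTN4 (1.07 ± 0.10) were also higher in Pvalb and Sst. The sums of CNTN3 and CADM1 did not overlap, but Vip was above both Pvalb and Sst for CNTN6 (310 and 273 CPM), above Pvalb for NTM (3598 and 3878) and above Sst for CNTN4 (424 and 492), and Lamp5 and Frem1 were low for these 3 genes. NXPH2 was called too (3.34 ± 0.18), but rested on Sst, since Pvalb (79.2 and 92.0 CPM) overlapped with Lamp5 (75.1 and 103). In the caudal direction, CNTN5 averaged 138 and 154 CPM in Pvalb and Sst against 528 and 645 (-1.97 ± 0.17), and SLITRK5 16.6 and 12.5 against 60.7 and 56.0 (-1.97 ± 0.14). NLGN1 averaged 1062 and 928 CPM against 2326 and 2105 (-1.12 ± 0.068). LGI1 (-1.08 ± 0.071), LRFN2 (-1.08 ± 0.088) and FLRT2 (-0.96 ± 0.14) were lower in Pvalb and Sst too, and the sums of these 6 genes did not overlap. With equal nuclei the call for FLRT2 was lost.

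Between Pvalb and Sst, 30 of 65 genes passed, beside 17.8% of all genes, with 14 higher in Pvalb and 16 in Sst, beside 8.78% and 8.98%. With equal nuclei per subclass 16 of 50 passed, beside 9.62% of all genes, and the call for LGI2 was lost. NXPH2 stood at 79.2 and 92.0 CPM in Pvalb and 1332 and 1151 in Sst (-3.84 ± 0.23, adjusted p = 1.6e-10). ELFN1 was at 6.25 and 5.86 CPM in Pvalb against 50.2 and 60.9 (-3.18 ± 0.33, adjusted p = 3e-07). LINGO2 (-2.50 ± 0.28), SLITRK3 (-2.35 ± 0.27), TENM3 (-1.88 ± 0.19) and NRXN3 (-1.38 ± 0.12) were higher in Sst. TENM1 was at 368 and 404 CPM in Pvalb and 117 and 124 in Sst (1.69 ± 0.21), opposite to TENM3 of the same family. IL1RAPL1 (1.44 ± 0.19), CNTN4 (1.25 ± 0.15), LGI2 (1.07 ± 0.21), LGI3 (0.98 ± 0.20), CNTNAP5 (0.81 ± 0.13) and OPCML (0.71 ± 0.10) were higher in Pvalb.

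Types within these subclasses are clusters of the same nuclei, so their values are a description. Of 31 genes that reached 100 CPM in both animals in some Pvalb type, 19 differed by 3-fold or more between the highest and lowest of the 6 types, beside 19.1% of all genes at that level. In oligodendrocytes, with 5 types, 12 of 19 did, beside 38.2%, in Sst 3 of 29, beside 9.81%, and in IT_A 2 of 28, beside 9.85%. Vip had 1 of 24, beside 1.47%, and 0 genes did in IT_C (beside 1.98%), L5PT (1.19%), L6CT (3.7%), Lamp5 (1.05%) and astrocytes (0.906%). Pvalb_5, with 110 and 99 nuclei, stood apart in several genes. CNTN3 was at 25.0 and 27.0 CPM there, against 720 and 689 in Pvalb_6. TENM2 was at 599 and 482 CPM in Pvalb_5 and at 3865 and 4127 in Pvalb_1, while CNTNAP5 was at 4762 and 4373 CPM in Pvalb_5 and at most 2023 in the other Pvalb types. Its Scrublet doublet calls (5.26%) were close to those of Pvalb_2 (5.65%) and above those of the other 4 types.

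Within Sst, CNTNAP4 ran from 1011 and 969 CPM in Sst_1 to 3800 and 4245 in Sst_4. SLITRK3 was at 105 CPM in Sst_2 of both animals and at 28.3 and 15.6 in Sst_4. LINGO2, low in Pvalb as a whole, was at 186 and 185 CPM in Pvalb_6 and at most 52.6 in the other Pvalb types, so that Pvalb_6 lay within the Sst range. In IT_A, NTNG1 was at 282 and 239 CPM in IT_A_2 and 60.9 and 46.8 in IT_A_3.

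**Figure D4:**
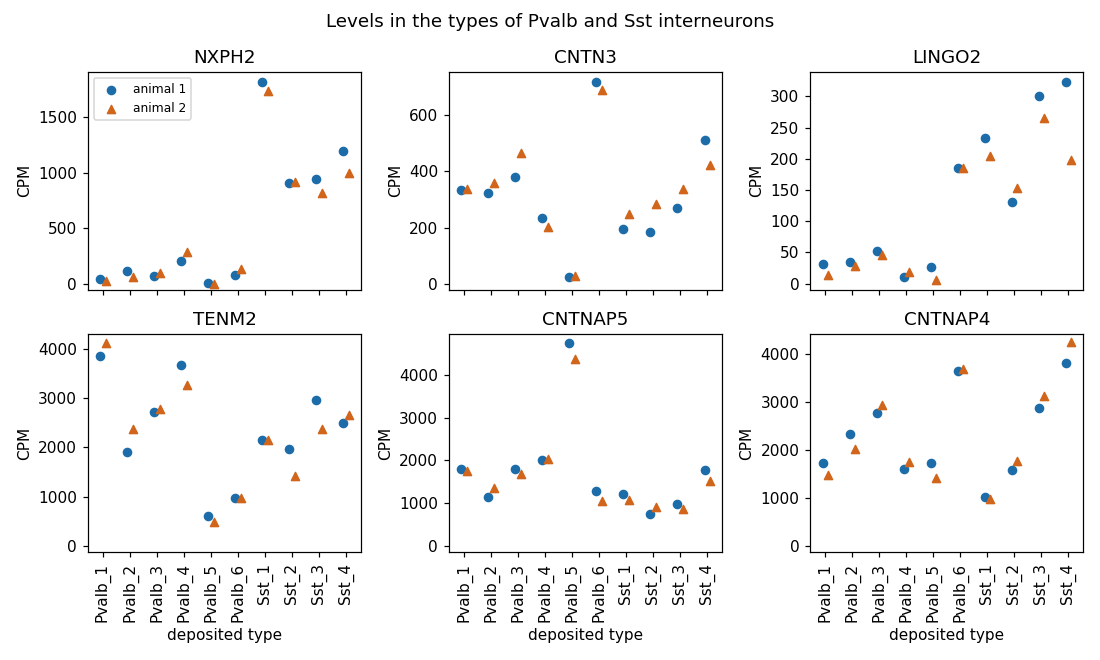
CPM of 6 genes in the 6 Pvalb and 4 Sst types, on linear axes, with circles for animal 1 and triangles for animal 2. Pvalb_5 is lowest for CNTN3 (25.0 and 27.0 CPM) and highest for CNTNAP5 (4762 and 4373 CPM), and NXPH2 is above 800 CPM in the Sst types alone.

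OPC, which divide and mature into myelinating cells and receive synapses from neurons, were compared with oligodendrocytes. Of 66 genes, 45 passed, beside 38.0% of all genes, with 38 higher in OPC and 7 lower, beside 20.2% and 17.9%. With equal nuclei per subclass 15 of 49 passed, beside 17.0% of all genes. In the main test the 66 genes had a median log2 fold change of 1.22 against -0.0046 over all genes. CNTN1 stood at 1341 and 1616 CPM in OPC and 89.8 and 119 in oligodendrocytes (3.65 ± 0.18, adjusted p = 6.3e-16). OPCML was at 8820 and 8606 CPM against 678 and 1029 (3.18 ± 0.18). CNTN5 (3.56 ± 0.28), NTNG2 (3.33 ± 0.38), CADM1 (2.53 ± 0.17), LRFN2 (2.53 ± 0.18), NTM (2.48 ± 0.29), LRRTM3 (2.15 ± 0.14), CNTN4 (2.13 ± 0.19), ADGRL3 (2.12 ± 0.14) and NLGN1 (1.76 ± 0.13) were also higher in OPC. The neuronal transcripts checked for free RNA reached up to 42.7% of the neuronal mean in OPC and 16.2% in oligodendrocytes. They did not move together. SNAP25 stood at a mean of 391 CPM in OPC and 141 in oligodendrocytes, and SYT1 at 717 and 199. RBFOX3 was at 72.1 and 34.2 and GAD1 at 11.8 and 8.41, but SV2B at 43.0 and 58.0 and GAD2 at 6.43 and 8.25. The part of free RNA in the differences between OPC and oligodendrocytes was not tested.

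Oligodendrocytes exceeded OPC in CNTN2 (252 and 242 CPM against 5.21 and 10.6, log2 fold change -5.19 ± 0.33, adjusted p = 1.6e-13) and in LGI3 (163 and 141 against 22.8 and 22.4, -2.92 ± 0.22). LGI1 (-0.91 ± 0.12) and CADM4 (-0.76 ± 0.16) were higher in oligodendrocytes with smaller differences, and CADM4 changed sign when equal numbers of nuclei were used (0.13). The calls for LGI3 and LGI1 were lost there. SLITRK2 (0.63 ± 0.21) and NLGN3 (1.20 ± 0.23), with higher non-neuronal means in the first comparison without endothelial nuclei, were higher in OPC.

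One oligodendrocyte type, OD_5, with 34 and 28 nuclei, stood apart in several of these genes. OPCML was at 10030 and 13405 CPM in OD_5 and at most 811 in OD_1 to OD_4. LSAMP was at 8214 and 7393 CPM and CNTN4 at 808 and 726, against at most 2804 and 98.1 in the other 4 types. In the opposite direction, CNTN2 was at 7.63 and 26.6 CPM in OD_5 and at 195 or more in each of the others, and LGI1 at 7.63 and 17.7 against at least 190.0. CNTN6 was high in OD_4 as well (784 and 1129 CPM) as in OD_5 (1083 and 1355). LGI3 did not follow CNTN2, with 83.9 and 159 CPM in OD_5 and 101 to 236 elsewhere. MOG, a late myelin gene, was at 564 and 452 CPM in OD_5 and at 1038 or more in the others, and 11.3% of its nuclei were Scrublet doublet calls against 0.84% or fewer, whose part was not tested. SNAP25, a neuronal transcript, was at 198 and 186 CPM in OD_5 and at 95.5 to 204 in the other types.

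**Figure D5:**
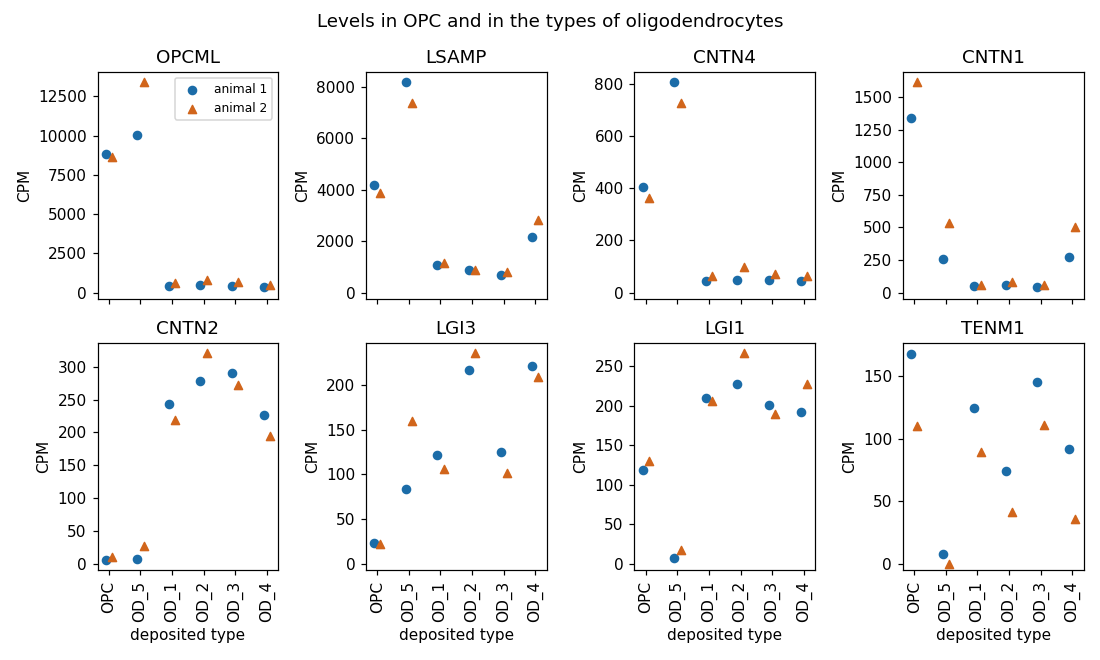
CPM of 8 genes in OPC and in the 5 oligodendrocyte types, on linear axes, with circles for animal 1 and triangles for animal 2. OD_5 lies near OPC for OPCML (10030 and 13405 CPM against 8820 and 8606) and below the other oligodendrocyte types for CNTN2 and LGI1.

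Partners outside the families were read from a list of 50 receptors, ligands and scaffold genes, of which 41 had a symbol and 37 or 38 were tested. In glutamatergic neurons 20 of 38 were higher than in GABAergic ones and 6 lower, beside 22.0% and 20.8% of all genes. C1QL3, a secreted ligand related to the cerebellins, led with a log2 fold change of 2.52, and GPC3 stood lowest at -2.64. Between interneuron origins, 14 of 38 were higher in Pvalb and Sst and 12 lower, beside 14.4% and 9.98% of all genes. Among them were GRM8, a metabotropic glutamate receptor, at 4.84, and PTPRD, the phosphatase that binds SLITRK and IL1RAPL1, at -1.54. Between Pvalb and Sst, 9 of 38 were higher in Pvalb and 10 lower, beside 8.78% and 8.98% of all genes. GRM7, another metabotropic glutamate receptor, was higher in Sst than in Pvalb (-1.95). Between IT_A and IT_C, 5 of 37 were higher in IT_A and 5 lower, beside 5.87% and 4.98% of all genes. PTPRD, given here because it binds IL1RAPL1, was lower in IT_A (-0.48). From OPC to oligodendrocytes, 21 of 38 were higher in OPC and 8 lower, beside 20.2% and 17.9% of all genes. ADAM22, the receptor of LGI proteins, was higher in oligodendrocytes (-1.52), as LGI1 and LGI3 were.

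Of the 6 genes that share only letters with LRRC4, LRRC40, LRRC47 and LRRC49 reached 20 CPM in both animals. LRRC47 was at 88.2 and 80.4 CPM in oligodendrocytes and 23.4 to 55.3 over the neuronal sums. LRRC49 was at 274 and 278 CPM in Lamp5 and 157 to 235 in the other neuronal subclasses. LRRC40 ran from 36.8 to 84.5 CPM over all 36 sums, the narrowest relative spread among these 3 genes.

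By the labels different experimenters processed the animals in parallel, so animal, age and handling cannot be told apart, and the animals are described with no test. Over 637 pairs of a gene of the list and a subclass with at least 20 CPM and 50 UMIs in the higher animal, 6 (0.942%) differed by 2-fold or more between animals, beside 1.3% of all 94053 such pairs. The median log2 ratio of animal 2 to animal 1 over these genes was 0.27 in oligodendrocytes (32 genes) and 0.41 in microglia (13 genes), beside 0.00077 and 0.021 over all genes, and -0.21 in IT_D (41 genes), beside -0.013. NTM in oligodendrocytes was at 250 CPM in animal 1 and 754 in animal 2, and CNTN3 there at 35.8 and 134. LINGO2 in IT_D was at 143 and 57.3 CPM, on 58 and 315 nuclei. In these 3 cases both libraries of an animal lay on the same side of both libraries of the other. Against the neuronal mean, NTM in oligodendrocytes stood at 8.46% and 26.2% and CNTN3 at 10.4% and 37.2%, with the free RNA share there reaching 16.2%, and the part of free RNA was not tested.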

How the data were processed

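Single-nucleus RNA was measured in V1 of 2 opossums, with 2 libraries per animal counted as 1 replicate. The authors deposited UMI counts of each gene in each nucleus as raw count values, made with Cell Ranger with intronic reads counted (version 6.1.1 in the submitters' processing notes, 7.1.0 in the matrix headers), and class, subclass and type labels. They also deposited a Scrublet doublet score per nucleus, a fraction between 0 and 1, which the authors computed, with a doublet call. The files held 36558 barcodes, and the 2315 nuclei that passed quality without a subclass were left out. Library totals are given in the report. CPM is a count per 1000000 UMIs of its sum.

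The sums of counts over the nuclei of a subclass in an animal were tested with edgeR 4.0.16 (TMM, low-count filter, quasi-likelihood test, Benjamini-Hochberg threshold 0.05) in R 4.3.3. The 36 sums of all subclasses, the 26 neuronal and the 8 IT sums were separate fits. Other steps used Python 3.11.15. The fit was tested on simulated data. Same-animal sums are paired by the animal: their deviations from subclass means correlated at 0.0034 to 0.597 (median 0.116, 153 pairs, 17230 genes). Both libraries and sums of an animal share a suspension. The main fits had no term for the animal and took its sums as independent. Their p-values use the spread about subclass means, pooled over subclasses, so even a small p rests on 2 animals.

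The genes, partner list and alternatives were chosen with earlier results of these data known. Genes named for a test had an adjusted p under 0.05, the same direction in both animals and 20 CPM on the higher side, up to 12 in each direction. Alternatives were DESeq2 1.42.0 and its size factors, no low-count filter, the animal as a block, doublets removed, equal nuclei, labels predicted without these genes and each animal left out. LRFN5, LRRC41 and other genes outside that rule are given as levels or as examples chosen after their values were seen.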

Additional observations from a re-analysis of the deposited data

How the results depend on the processing

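Counts of genes called moved by under 1.5 times in most settings. With the animal as a replicate block, IT_A against IT_C gave 33 calls in place of 14, with all 14 kept, and the block moved no other count of calls by 1.5 times. With equal nuclei per subclass (29 and 36 nuclei in the fit of all subclasses, 56 and 53 in the neuronal fit), Pvalb against Sst gave 16 calls of 50 genes tested in place of 30 of 65, and OPC against oligodendrocytes 15 of 49 in place of 45 of 66. Fewer nuclei leave fewer UMIs and fewer genes tested. Of 131 fold changes of named genes, 20 then kept their direction but lost the call. Only some of these losses are named beside their results. CADM4 changed sign between OPC and oligodendrocytes (0.13), the 1 named gene to do so in the settings run with a test. Labels predicted from the other animal without these genes matched the deposited ones in 96.7% of the nuclei of animal 1 and 96.0% of animal 2. They kept 48 of 50, 44 of 45, 35 of 37, 12 of 14, 32 of 33, 29 of 30 and 44 of 45 calls in the order of the report. DESeq2's size factors moved the median log2 fold change of all genes from 0.44 to 0.34 between neurons and non-neuronal nuclei and from -0.0046 to 0.13 between OPC and oligodendrocytes, and every gene called kept its direction. Leaving out an animal leaves no residual degrees of freedom, so those fold changes carry no test. All 131 fold changes of named genes kept their sign, and 44 moved by over 1 SE without animal 1 and 53 without animal 2. Moves of over 1.5 times were LRFN2 between neurons and non-neuronal nuclei (2.92 to 4.75) and NXPH2 between IT_A and IT_C (1.48 to 0.93) without animal 1. Without animal 2 they were CNTN5 (-0.69 to -0.42) and IL1RAPL1 (-0.73 to -0.41) between glutamatergic and GABAergic neurons and FLRT2 between IT and other glutamatergic neurons (-0.96 to -1.46).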
